A study of Bos taurus with 12 samples.

Results

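The genes described here encode the subunits of the mitochondrial respiratory chain and the ATP synthase, together with cytochrome c, in the bovine corpus luteum. They were chosen by name and place: every gene whose symbol belongs to the NDUFA, NDUFB, NDUFC, NDUFS, NDUFV, SDHA to SDHD, UQCR, CYC1, CYCS, COX4 to COX8 or ATP5 series, and every protein gene carried by the mitochondrial genome. The rule found 98 of the 27270 genes in the deposited tables, 85 of them nuclear encoded and 13 mitochondrially encoded. Of the 98 genes, 95 had enough counts to be tested, among 14481 tested genes in all. The 3 that did not, COX6A2, COX7B2 and COX8B, are alternative subunits of complex IV and had at most 16 counts in any cow.

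Whole corpora lutea of 12 mixed-breed cows on day 10 of the luteal phase were profiled by RNA sequencing, 1 library for each animal. Control cows (n = 4) were injected with saline, and the other cows were injected with a luteolytic dose of PGF2α, the prostaglandin that ends the life of the corpus luteum, and their tissue was collected 4 h (n = 4) or 12 h (n = 4) later. The comparisons follow the transcripts of the respiratory chain early and later in induced luteolysis. Cows are named by the number in their sample labels.

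The respiratory chain passes electrons from NADH through complex I, and from succinate through complex II, to complex III, cytochrome c and complex IV, which reduces oxygen. Complexes I, III and IV pump protons, and the ATP synthase, complex V, lets them flow back to make ATP. Complex II is built from nuclear genes alone, whereas the other complexes join nuclear encoded subunits, translated in the cytosol and imported, with subunits translated from mitochondrial transcripts inside the organelle. In luteal cells the mitochondrion also holds the cholesterol side chain cleavage system that begins progesterone synthesis.

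Total expected counts, the authors' estimate of the reads of each gene summed over genes, ran from 10263310 to 22600213 per cow. Steroidogenic cell markers (8 genes, among them STAR, CYP11A1 and HSD3B1) marked the tissue as luteal, with a summed level of 20246 to 29754 TPM (a transcript level scaled for transcript length and library size) in controls, 18152 to 21858 TPM at 4 h and 4765 to 9396 TPM at 12 h. Macrophage markers (12 genes) summed to 226 to 681 TPM in controls and 575 to 905 at 12 h, and none of them was at 0. In tissue RNA, fewer cells of a type and less RNA per cell cannot be told apart. Among the 12 h cows, cow6314 had the lowest luteal sum (4765 TPM) and the highest sums of pericyte and smooth muscle markers (5230 TPM, against 945 to 1751 in the other 12 h cows) and of endothelial markers (838 TPM, against 395 to 454), and also the highest macrophage and fibroblast sums (905 and 19035 TPM). Weighted by TPM, transcripts averaged 1413 to 1577 bases at 12 h and 1628 to 1728 bases in controls. The part of these differences in the results below was not tested, beyond the values given without cow6314 and with an offset for transcript length.

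The 13 mitochondrially encoded genes outweighed the 85 nuclear encoded genes in every cow. Their summed level was 133559, 179233, 188643 and 170271 TPM in control cow4285, cow6464, cow7367 and cow7514. It was 154259, 176740, 186389 and 170797 TPM in cow4291, cow5341, cow6455 and cow6456 at 4 h. It was 224988, 132225, 199630 and 210412 TPM in cow5266, cow6314, cow7382 and cow7475 at 12 h. At 12 h 3 cows were above every control and cow6314 was below every control, so the 12 h cows fell on both sides of the controls.

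The nuclear encoded genes summed to less after PGF2α at 4 h. Their summed level was 25253, 25855, 28745 and 29303 TPM in controls and 24418, 23661, 22349 and 22383 TPM at 4 h, with no overlap between the groups. At 12 h it was 26870, 21382, 24703 and 22988 TPM, and cow5266 lay within the control range. Per unit of nuclear encoded TPM there was 6.15 ± 0.74 of mitochondrially encoded TPM in controls, against 7.44 ± 0.84 at 4 h and 7.95 ± 1.26 at 12 h (mean ± SD of 4 cows each). On the log2 scale the ratio was 0.28 higher at 4 h and 0.36 higher at 12 h than in controls, against pooled SDs of 0.17 and 0.21, and at both times the lowest treated cow lay inside the control range.

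**Figure D1:**
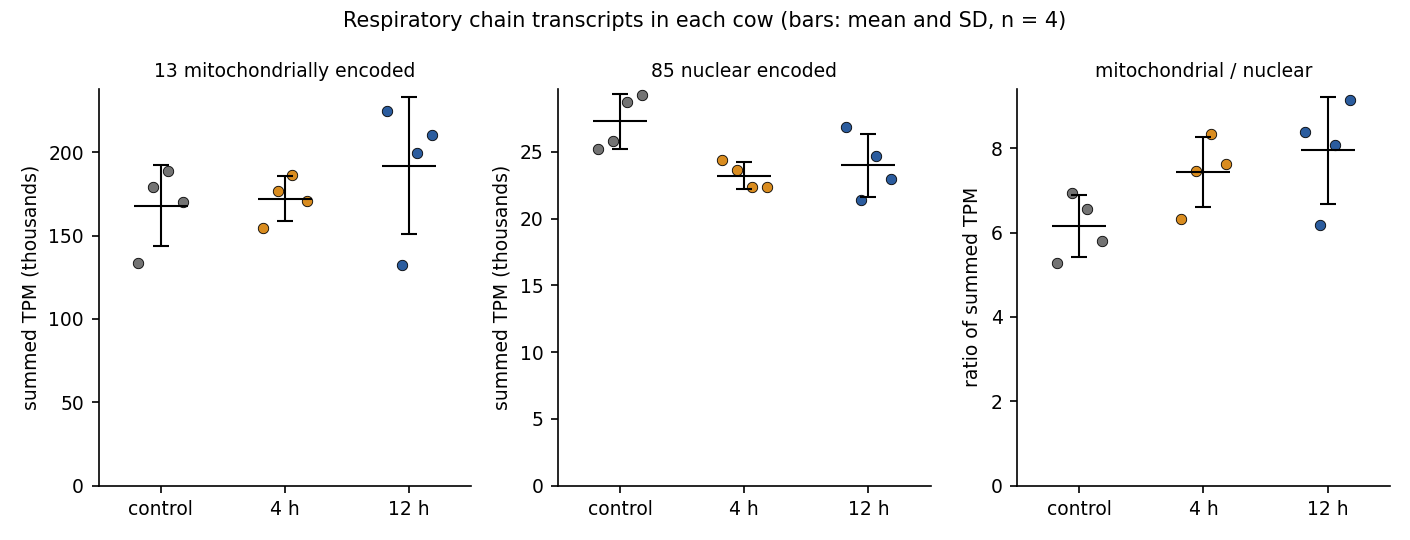
Summed level (axis in 1000 TPM) of the 13 mitochondrially encoded and the 85 nuclear encoded respiratory chain genes, and their ratio, in each cow (points) with bars for the group mean ± SD of 4 cows. The nuclear sums at 4 h (22349 to 24418 TPM) all sit below the control sums (25253 to 29303 TPM), and the 12 h cow with the lowest mitochondrial sum (132225 TPM) is cow6314.

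At 4 h the nuclear encoded subunits were slightly lower almost without exception, and few of the single differences passed the test. Of the 82 tested, 81 had a log2 fold change below 0 (median -0.21, against -0.03 over all tested genes), and COX7A1 was the exception at 0.11. Only 2 fell and 0 rose with an adjusted p under 0.05 in edgeR's quasi-likelihood test, where 5.59% of all tested genes fell and 8.65% rose. At an unadjusted p under 0.05, 19 were lower and 0 were higher, where 2100 of all 14481 tested genes were lower and 2150 were higher. DESeq2 called 3 lower and 0 higher, against 7.46% and 11.5% of all genes. Leaving out 1 cow gave between 0 and 4 falls: 0 without cow6464, cow7514, cow5341 or cow6456, 1 without cow4285, cow7367, cow4291, cow7382 or cow7475, and 4 without cow6314. The shares over all tested genes in these fits are not given here. In TPM, all 4 cows at 4 h lay below all 4 controls for 36 of the 82 genes, as they did for 10.7% of all tested genes. In CPM (counts relative to the library's total, scaled by TMM) this held for 18 of the 82, and for 9.50% of all genes. The 82 genes share the same 12 libraries and are not independent observations.

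UQCRB, the binding protein subunit that sits beside cytochrome b in complex III, was one of the pair that fell at 4 h. It lies on chromosome 14 from 67986645 to 67991355 (ARS-UCD 1.2, as are all positions below). Its level was 381.18, 446.40, 432.86 and 436.35 TPM in control cow4285, cow6464, cow7367 and cow7514, and 334.11, 300.36, 306.40 and 306.05 TPM in 4 h cow4291, cow5341, cow6455 and cow6456. Every 4 h cow was below every control. The log2 fold change was -0.41 ± 0.10 (SE, edgeR adjusted p = 0.0215), and it passed the test in all 10 alternative settings and in 7 of the 12 fits that left out 1 cow. At 12 h UQCRB was at 262.69 to 298.49 TPM, again below every control, with a log2 fold change of -0.26 in scaled counts that did not pass (edgeR adjusted p = 0.0551).

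NDUFB10, an accessory subunit of the membrane arm of complex I (chromosome 25, 1516192 to 1519337), was the other. It was at 93.05, 97.40, 101.93 and 92.08 TPM in controls and at 79.29, 67.75, 80.82 and 73.64 TPM at 4 h. The groups did not overlap at 4 h, and the log2 fold change was -0.32 ± 0.10 (SE, edgeR adjusted p = 0.0443). At 12 h it was at 96.70, 100.81, 90.07 and 85.08 TPM, which overlaps the control values. In scaled counts it was then higher than in controls (log2 fold change 0.26, edgeR adjusted p = 0.037), while on the log2(TPM + 1) scale the difference was -0.05. The call at 4 h held in 6 of the 10 alternatives and in 2 of the 12 fits without 1 cow.

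None of the 13 mitochondrially encoded genes passed the test at 4 h, in edgeR or in DESeq2, and 0 had an unadjusted p under 0.05. At that cutoff 2100 of all 14481 tested genes were lower and 2150 were higher. Their log2 fold changes ran from -0.15 (ND5) to 0.24 (CYTB), with a median of 0.03.

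**Figure D2:**
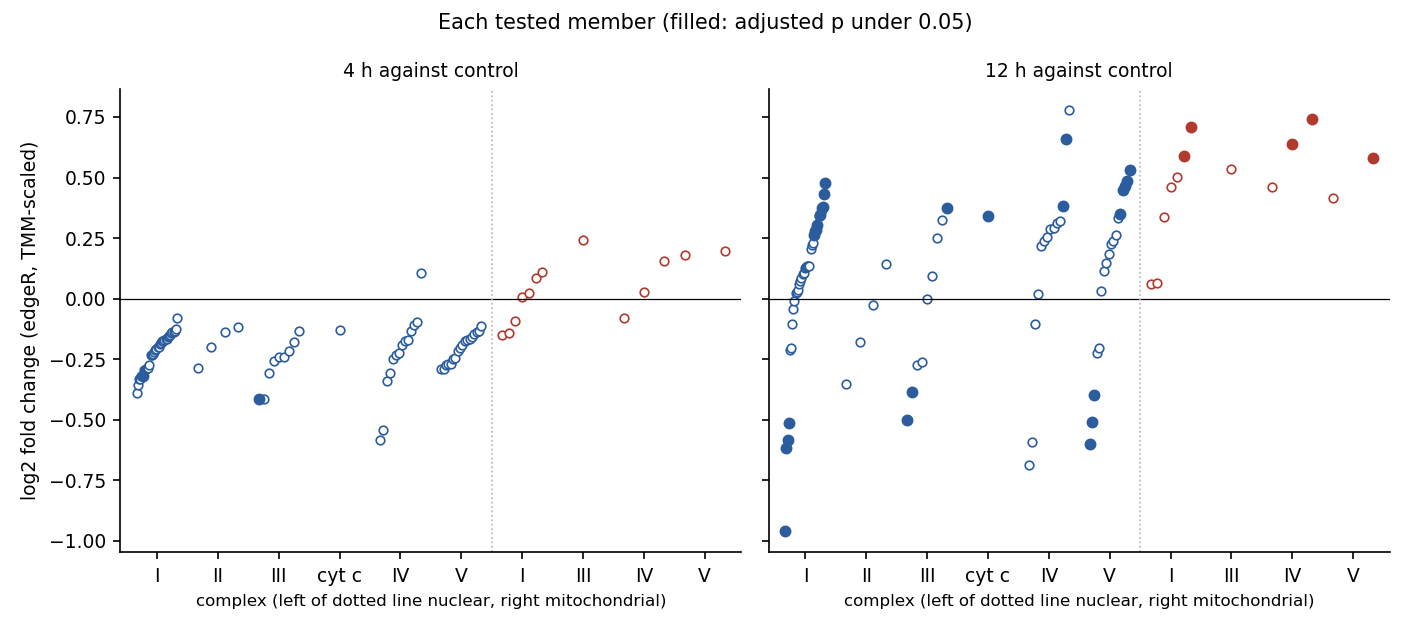
Log2 fold change of each tested gene at 4 h and at 12 h against control, from edgeR on TMM-scaled counts, grouped by complex and by the genome that encodes the gene. Filled points have an adjusted p under 0.05. At 4 h 81 of 82 nuclear encoded genes lie below 0 and 2 are filled, and at 12 h 18 filled nuclear points lie above 0 and 9 below.

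At 12 h some nuclear encoded subunits were higher than in controls and others lower. Of the 82 tested, 18 rose and 9 fell, where 23.6% of all tested genes rose and 25.3% fell, so the share that rose was near that of all genes and the share that fell was below it. The median log2 fold change was 0.13, where that of all genes was 0.01. The split depends on the scale: with an offset for transcript length 4 rose and 13 fell (24.0% and 22.8% of all genes), and on the log2(TPM + 1) scale, in limma, 1 rose and 27 fell (10.3% and 38.7%), with a median of all tested genes at -0.25. In DESeq2, 21 rose and 11 fell (25.7% and 26.1%). Without cow6314, 42 rose and 6 fell (24.9% and 23.2%), without cow5266, 8 rose and 13 fell (20.4% and 23.7%), without cow7382, 9 rose, and without cow7514, 5 fell. For the fits without cow7382 or cow7514 the shares over all genes are not given here. A general change in the number of calls there cannot be told apart from a change in these genes. Of the 9, 8 fell in all 10 alternatives, UQCRFS1 being the other, and 5 fell also in every fit that left out 1 cow: NDUFS1, NDUFS3, NDUFV3, NDUFA9 and ATP5F1B. The share of all tested genes that kept a rise or a fall in every setting was not computed, so these numbers have no background.

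NDUFS1 encodes the largest subunit of complex I, an iron-sulphur protein of the arm that accepts electrons from NADH. It lies on chromosome 2 from 94460487 to 94489927. Its level was 74.26, 80.21, 93.12 and 102.04 TPM in controls, 78.74, 76.26, 49.74 and 68.42 TPM at 4 h, and 35.52, 35.49, 40.13 and 33.42 TPM at 12 h. The 12 h cows lay below all others, while the 4 h cows overlapped the controls. The log2 fold change at 12 h was -0.96 ± 0.14 (SE, edgeR adjusted p = 0.000214), the lowest of the 95 genes, and -0.83 with the length offset. NDUFS1 was also the only respiratory chain gene that was lower at 12 h than at 4 h in edgeR (log2 difference -0.63 ± 0.14 SE, edgeR adjusted p = 0.00363), where DESeq2 called 2.

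NDUFS3, a core subunit of the same arm (chromosome 15, 77379153 to 77383888), followed it. It was at 188.40, 163.84, 198.96 and 219.43 TPM in controls, 153.38, 139.16, 156.67 and 124.85 TPM at 4 h, and 115.84, 90.36, 97.09 and 98.51 TPM at 12 h. NDUFS3 in TPM did not overlap among the 3 groups, and cow5266 was the highest at 12 h. In scaled CPM its 4 h cows overlapped both other groups, while its 12 h cows lay below every control. Its log2 fold change was -0.39 at 4 h, which did not pass (edgeR adjusted p = 0.0875), and -0.62 at 12 h (SE 0.14, adjusted p = 0.00342).

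NDUFV3, an accessory subunit of the NADH binding module (chromosome 1, 143119850 to 143131757), was at 71.32, 68.09, 88.51 and 87.78 TPM in controls and at 51.84, 43.08, 47.30 and 37.54 TPM at 12 h. NDUFA9, an accessory subunit at the joint of the arms (chromosome 5, 105474032 to 105495946), was at 101.68, 97.98, 111.88 and 125.47 TPM in controls and at 69.61, 53.36, 63.10 and 58.52 TPM at 12 h. Neither overlapped between these groups, and their log2 fold changes were -0.58 (SE 0.14) and -0.51 (SE 0.13). Of the 7 nuclear encoded core subunits of complex I, 2 fell and 0 rose in edgeR or DESeq2. At an unadjusted p under 0.05, 0 were higher, where 3964 of all 14481 tested genes were. Of the 29 accessory subunits, 9 rose and 2 fell. The 2 of 7 core falls (28.6%) and the 9 of 29 accessory rises (31.0%) are near the shares of all tested genes, 25.3% and 23.6%.

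In complex III the 2 falls were UQCRC2 and UQCRFS1. UQCRC2, one of the large core proteins (chromosome 25, 19647361 to 19673589), was at 215.66, 215.55, 273.40 and 281.59 TPM in controls, 183.66, 197.11, 149.60 and 196.59 TPM at 4 h, and 157.05, 127.27, 153.91 and 119.97 TPM at 12 h. Both treated groups lay below every control in TPM. The log2 fold change at 12 h was -0.50 ± 0.15 (SE, edgeR adjusted p = 0.0149), and without cow6314 it was -0.36 (adjusted p = 0.053). UQCRFS1, the Rieske iron-sulphur protein (chromosome 18, 997260 to 1002080), went from 276.49 to 400.67 TPM in controls to 192.93 to 210.35 TPM at 12 h, with a log2 fold change of -0.39 ± 0.14 (SE, edgeR adjusted p = 0.0318) that was -0.28 (adjusted p = 0.11) without cow6314.

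Both large subunits of the catalytic head of the ATP synthase fell as well. ATP5F1B, the beta subunit that carries the catalytic sites (chromosome 5, 56789495 to 56795018), was at 990.99, 984.17, 1190.44 and 1266.49 TPM in controls, 998.74, 971.49, 742.70 and 893.31 TPM at 4 h, and 671.71, 542.19, 605.33 and 519.57 TPM at 12 h. In TPM its 12 h values lay below all others, while in scaled CPM that of cow5266 lay among the 4 h cows. The log2 fold change at 12 h was -0.60 ± 0.15 (SE, edgeR adjusted p = 0.00511). ATP5F1A, the alpha subunit (chromosome 24, 45842148 to 45851502), was at 880.48, 896.10, 1153.60 and 1089.20 TPM in controls and 624.77, 507.71, 620.11 and 511.13 TPM at 12 h, again apart, with a log2 fold change of -0.51 ± 0.16 (SE, edgeR adjusted p = 0.0166, and 0.052 without cow6314).

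ATP5MC3, 1 of the 3 genes for the same c subunit of the rotor ring (chromosome 2, 21688062 to 21691528), was at 495.04 to 627.57 TPM in controls and 325.89 to 386.23 TPM at 12 h (log2 fold change -0.40 ± 0.12 SE, edgeR adjusted p = 0.0162, and -0.28 with an adjusted p of 0.06 without cow6314). ATP5MC1 (log2 fold change -0.20, adjusted p = 0.214) and ATP5MC2 (0.19, adjusted p = 0.103) did not pass the test. ATP5MC3 was at 216% ± 29.6 of the TPM of ATP5MC2 in controls and at 143% ± 14.8 at 12 h (mean ± SD of 4 cows each), and the groups were apart at 173% to 242% against 130% to 160%. The 3 genes encode the same mature protein, and reads that fit more than 1 of them are divided among them by estimated counting, so their levels are uncertain. The expected count of ATP5MC2 was not whole in any of the 12 libraries.

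**Figure D3:**
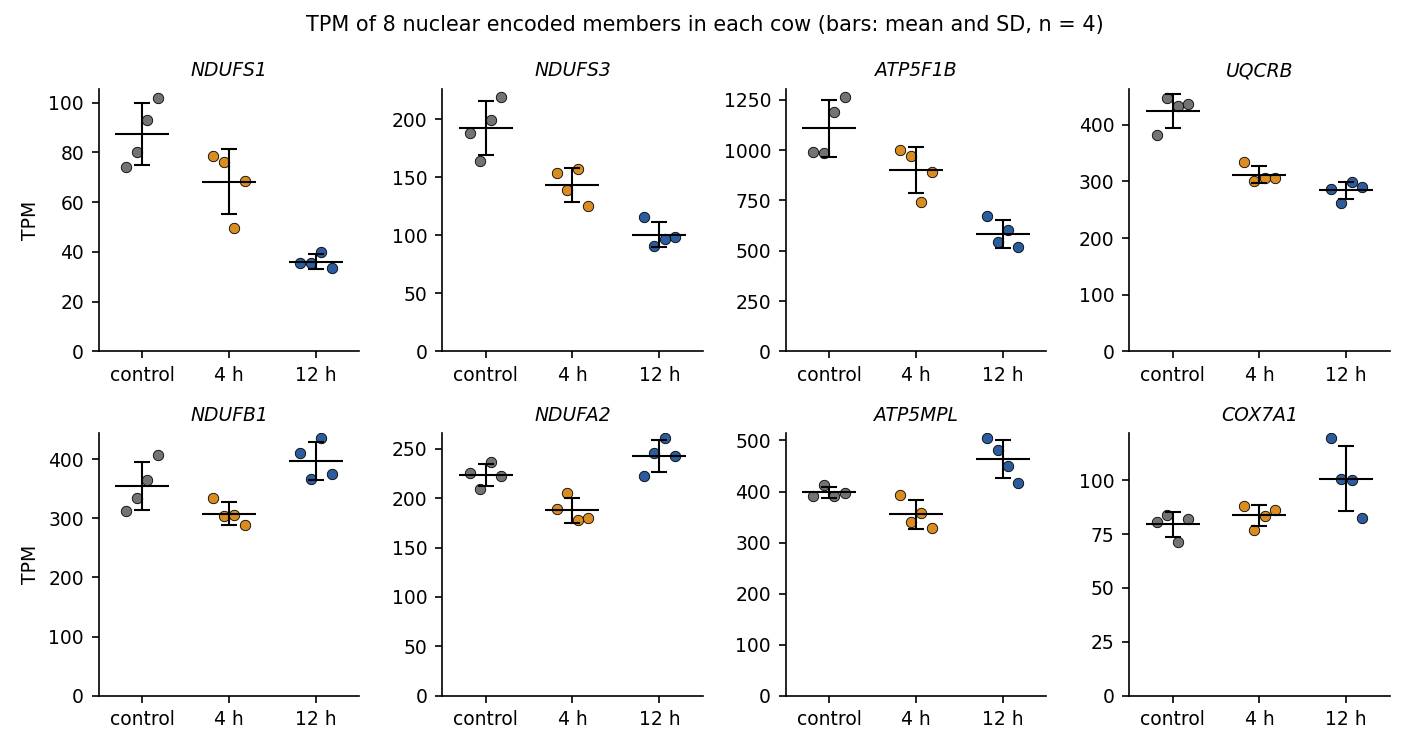
TPM of 8 nuclear encoded genes in each cow (points) with bars for the group mean ± SD of 4 cows. NDUFS1, NDUFS3, ATP5F1B and UQCRB at 12 h lie below every control, while ATP5MPL at 12 h (417.59 to 505.28 TPM) lies above every control (391.20 to 412.96 TPM) and NDUFB1, NDUFA2 and COX7A1 overlap the controls.

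The nuclear encoded genes that rose at 12 h were mostly small accessory subunits with short transcripts. ATP5MPL, a small membrane protein of the ATP synthase (chromosome 21, 68460845 to 68462522), was at 391.92, 412.96, 391.20 and 397.54 TPM in controls, 393.51, 340.30, 357.48 and 329.04 TPM at 4 h, and 505.28, 480.48, 450.83 and 417.59 TPM at 12 h. All 12 h cows were above all controls in TPM. Its log2 fold change was 0.53 ± 0.10 (SE, edgeR adjusted p = 0.000701) in scaled counts, 0.24 (adjusted p = 0.027) with the length offset and 0.21 (limma adjusted p = 0.08) on the log2(TPM + 1) scale. ATP5PF, the coupling factor 6 of the stalk, was the other gene whose 12 h cows (537.72 to 578.63 TPM) were all above the controls (496.41 to 537.42 TPM), by a margin of less than 1 TPM.

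Apart from ATP5MPL, ATP5PF and COX7A1, 15 nuclear encoded genes rose. They had log2 fold changes of 0.26 to 0.48 in scaled counts, and limma on log2(TPM + 1) called none of them. In complex I they were NDUFA1, NDUFA2, NDUFA7, NDUFB1, NDUFB6, NDUFB9, NDUFB10, NDUFS4 and NDUFS5, with log2 fold changes from 0.26 (NDUFB10) to 0.48 (NDUFB1), and all 9 are accessory subunits. NDUFB1 (chromosome 21, 56801789 to 56808775) was at 312.40, 334.38, 365.06 and 407.48 TPM in controls and at 410.81, 366.95, 436.57 and 374.52 TPM at 12 h, with cow5266 and cow7382 above every control and the other 12 h cows among them. In complex III UQCRH, the hinge protein that helps cytochrome c dock, was at 845.53 to 1025.25 TPM in controls and 826.83 to 1033.73 TPM at 12 h (log2 fold change 0.37, edgeR adjusted p = 0.0237). CYCS, cytochrome c itself, was at 187.94 to 267.42 TPM in controls and 206.57 to 237.15 TPM at 12 h (0.34, edgeR adjusted p = 0.0258). In complex IV COX6B1 (0.38, edgeR adjusted p = 0.0315) rose beside COX7A1, and in the ATP synthase ATP5F1E, ATP5MD and ATP5ME (0.48, 0.47 and 0.35) rose beside ATP5MPL and ATP5PF. In TPM the groups overlapped for all of these except ATP5MPL and ATP5PF. The 55 tested nuclear encoded genes that neither rose nor fell had log2 fold changes from -0.69 (NDUFA4L2) to 0.78 (COX6B2). COX6B2 passed the count minimum mainly through the 12 h cows, and its value is not read as a result. Among the 55 were the most abundant of complex IV, COX6A1 (mean 1405 TPM in controls, log2 fold change 0.22) and COX4I1 (989 TPM, 0.32).

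COX7A1, the isoform of complex IV subunit 7A found in heart and skeletal muscle (chromosome 18, 46806391 to 46808127), was the 1 nuclear encoded gene that rose in all 10 alternatives and all 12 fits without 1 cow. It was at 80.69, 84.01, 71.18 and 82.08 TPM in controls, 87.98, 76.72, 83.60 and 86.38 TPM at 4 h, and 119.43, 100.74, 100.28 and 82.37 TPM at 12 h. Cow7475 lay within the control range. The log2 fold change at 12 h was 0.66 ± 0.13 (SE, edgeR adjusted p = 0.000968). Among 12 markers for pericytes and smooth muscle, 2 (16.7%) were called higher and 2 (16.7%) lower at 12 h. The shares over all tested genes were 23.6% and 25.3%. None of the 12 was at 0 in all cows of a group. Their summed level was 714 to 2145 TPM in controls. At 12 h it was 945, 5230, 1137 and 1751 TPM in cow5266, cow6314, cow7382 and cow7475. Only cow6314 lay outside the control range. The part of pericytes and smooth muscle cells in the COX7A1 result was not tested.

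The other isoforms gave no such call. COX4I2, the form of subunit 4 known for its oxygen response, was at 4.19 to 8.95 TPM in controls and 2.06 to 4.27 TPM at 12 h (log2 fold change -0.59, edgeR adjusted p = 0.0893). NDUFA4L2, a hypoxia-responsive relative of the complex IV subunit NDUFA4, was at 17.43 to 42.17 TPM in controls. At 12 h it was at 9.30, 10.51 and 13.01 TPM in cow5266, cow7382 and cow7475 and at 27.25 TPM in cow6314. Its log2 fold change was -0.69 (adjusted p = 0.0718), and -1.0 (adjusted p = 0.007) without cow6314. COX6B2, the testis form of subunit 6B, was at 1.09 to 2.67 TPM in controls, 0.81 to 1.21 TPM at 4 h and 1.70 to 2.55 TPM at 12 h. It had 5 to 10 counts in controls and 4 h cows and 11 to 15 at 12 h, and it passed the count minimum mainly through the 12 h cows, so its call between 12 h and 4 h is not read as a result.

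Of the 4 genes of complex II, 0 rose or fell at 12 h in edgeR or in DESeq2. At an unadjusted p under 0.05 1 was lower and 0 were higher, where 4085 of all 14481 tested genes were lower and 3964 higher. SDHA, the flavoprotein that oxidises succinate, was at 331.32 to 411.53 TPM in controls and 190.04 to 272.55 TPM at 12 h. The groups were apart in TPM, and the log2 fold change in scaled counts was -0.35 (edgeR adjusted p = 0.0742). In TPM, all 12 h cows were below all controls for 24 of the 82 nuclear encoded genes and above them for 2, where the shares over all tested genes were 34.9% and 9.12%. In scaled CPM the numbers were 6 and 5 of 82, against 23.0% and 21.0%.

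The log2 fold change of a nuclear encoded gene at 12 h was related to the length of its transcript. Over the 82 nuclear encoded genes, Spearman's rho between the log2 fold change and effective transcript length was -0.58, and over all 14481 tested genes it was -0.20. These are descriptions across genes, which share the libraries. Of the 25 genes with transcripts under 500 bases, 12 rose and 0 fell (median 0.32, against 0.38 for all genes of that length, of which 39.9% rose and 10.4% fell). Of the 26 genes between 500 and 1000 bases, 4 rose and 2 fell (median 0.13, against 0.25, with 33.8% and 13.4%). Of the 26 genes between 1000 and 2000 bases, 2 rose and 5 fell (median 0.02, against 0.11, with 27.8% and 19.8%). Of the 5 genes over 2000 bases, 0 rose and 2 fell (median -0.35, against -0.11, with 18.0% and 31.9%). With the length offset, rho was -0.37 over the 82 genes and -0.02 over all genes.

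**Figure D4:**
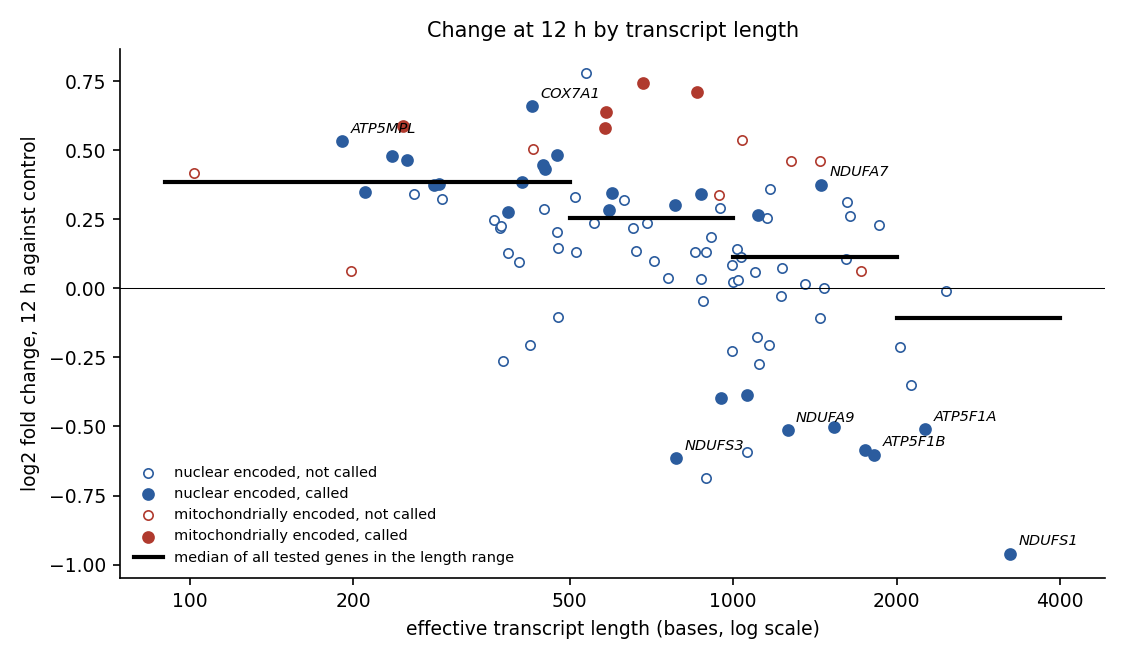
Log2 fold change at 12 h against control of each tested respiratory chain gene, plotted against its effective transcript length in bases (log axis), with the median of all tested genes in 4 length ranges (black lines; the first and last lines stand for all genes under 500 and over 2000 bases). The median of the 25 nuclear encoded genes under 500 bases (0.32) lies near that of all genes of that length (0.38), with UQCRB, NDUFB2 and NDUFA6 below 0, and NDUFS1, NDUFS3, NDUFA9, ATP5F1A and ATP5F1B lie below the medians of their ranges.

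Ratios of genes within a cow do not depend on how libraries were scaled, though they do not remove an effect of transcript length. The pairs in this paragraph were chosen after their values were seen, and are given without a test. NDUFS1 was at 24.6% ± 0.83 of the TPM of NDUFB1, a small accessory subunit of the same complex, in controls, 22.2% ± 3.99 at 4 h and 9.11% ± 0.44 at 12 h (mean ± SD of 4 cows each). ATP5F1B was at 279% ± 38.9 of ATP5MPL in controls, 255% ± 33.8 at 4 h and 126% ± 9.87 at 12 h. In both pairs the 12 h cows lay below every other cow. ATP5IF1, the inhibitor that blocks reverse action of the ATP synthase, was at 38.4% ± 1.73 of ATP5F1B in controls, 39.3% ± 4.85 at 4 h and 64.5% ± 1.88 at 12 h. The level of ATP5IF1 itself overlapped between these groups (372.89 to 501.83 TPM in controls, 338.10 to 445.57 TPM at 12 h).

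In scaled counts the mitochondrially encoded genes had a median log2 fold change of 0.50 at 12 h, and 13 of 13 were above 0. On the log2(TPM + 1) scale ND2, ND4L and ND5 were below 0 (-0.008, -0.29 and -0.27) and the others above 0. With the length offset only ND4L was below 0 (-0.24). Of the 13 genes, 5 rose in edgeR: ND1 and ND3 of complex I, COX2 and COX3 of complex IV, and ATP6 of the ATP synthase. The share of all tested genes that rose was 23.6%, as above. With the length offset 2 rose (ND1 and COX3), and on the log2(TPM + 1) scale 0 rose in limma, while DESeq2 called 7. The calls rest on single cows. Without cow6314, the 12 h cow with the lowest luteal marker sum, 11 of 13 rose, all but ND4L and ND5 (24.9% of all tested genes rose). Without cow5266, 0 rose (20.4% of all tested genes). Without cow7475, 1 rose, without cow7382, 2 rose, and without control cow4285, 3 rose, and for these fits the shares over all genes are not given here.

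COX3, a core subunit of complex IV (mitochondrial positions 8970 to 9750), had the smallest adjusted p. It was at 14159.88, 15693.29, 20374.39 and 16487.43 TPM in controls, 17459.46, 18104.98, 20047.55 and 17127.39 TPM at 4 h, and 26803.86, 15771.68, 22451.12 and 23713.23 TPM at 12 h. At 12 h 3 cows were above all other cows and cow6314 lay among the controls. The log2 fold change was 0.74 ± 0.22 (SE, edgeR adjusted p = 0.015), and 0.96 (adjusted p = 0.00088) without cow6314. ND1, a membrane subunit of complex I (positions 3101 to 4056), showed the same order of cows at 12 h, with 13437.57, 7533.10, 10859.58 and 11611.80 TPM against 6573.46 to 9594.93 TPM in controls (log2 fold change 0.71 ± 0.22 SE, edgeR adjusted p = 0.0189).

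ND5 and ND4L stood at the other end. ND5, the largest proton-pumping subunit (positions 12109 to 13929), was at 3278.97, 4939.01, 4903.62 and 6257.52 TPM in controls and 4329.33, 2615.04, 4024.45 and 5092.16 TPM at 12 h. The groups overlapped, and the log2 fold change in scaled counts was 0.06 ± 0.25 (SE, edgeR adjusted p = 0.853). ND5 was at 29.2% ± 6.94 of the TPM of COX3 in controls, 23.6% ± 1.79 at 4 h and 18.0% ± 2.42 at 12 h, a pair chosen, like the next, after its values were seen, and its 12 h cows (16.2% to 21.5%) lay below every control (23.2% to 38.0%). ND4L was at 57.6% ± 4.08 of ND4, which shares its transcript, in controls and at 44.0% ± 2.88 at 12 h, with no overlap (mean ± SD of 4 cows each). The genes ND4L and ND4 share 7 bases, ATP8 and ATP6 share 40, ATP6 and COX3 share 1, and ND5 and ND6, on opposite strands, share 17. Whether the reads kept their strand is not given in the sources used here, so reads from the overlap of ND5 and ND6 cannot be assigned to a strand.

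**Figure D5:**
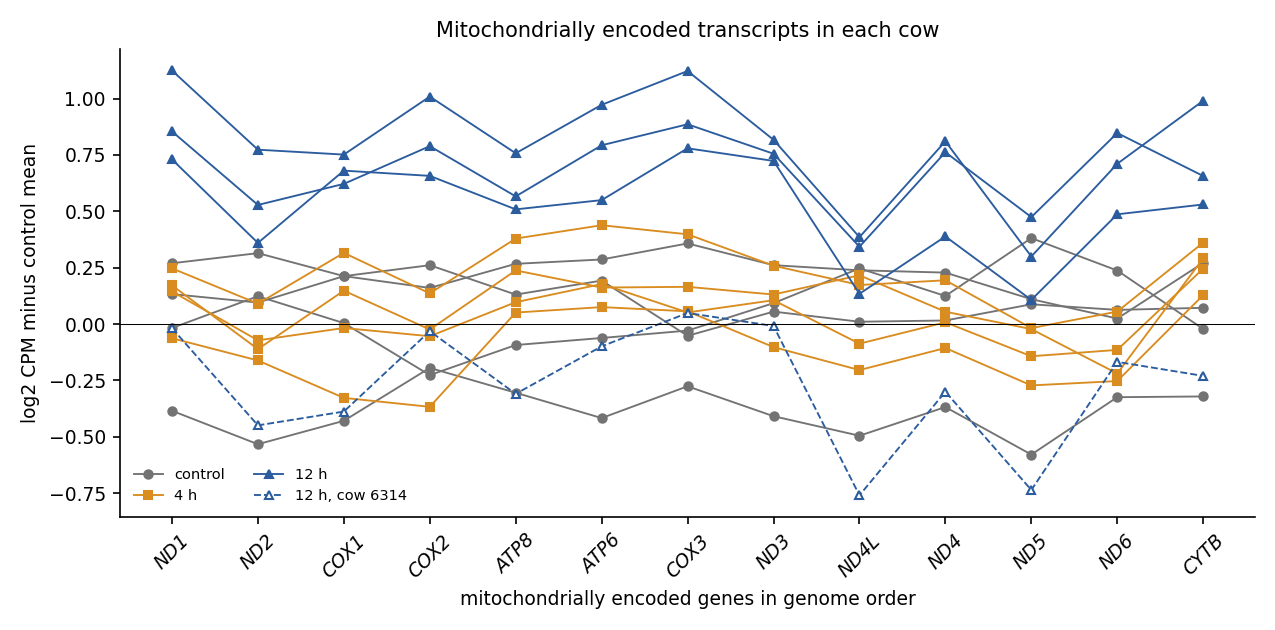
Log2 CPM minus the control mean of the 13 mitochondrially encoded genes in genome order, 1 line per cow. At 12 h 3 cows run above the controls for most genes and come closest to them at ND4L and ND5, and cow6314 (dashed) runs within or below the controls.

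From 4 h to 12 h the nuclear encoded genes moved up in scaled counts. Against 4 h, 48 of the 82 were higher at 12 h and 1 was lower, where 22.5% of all tested genes were higher and 24.3% were lower. The median log2 difference was 0.36, against 0.02 over all genes. On the log2(TPM + 1) scale 9 were higher and 12 lower (8.88% and 35.6% of all genes), and with the length offset 26 were higher and 4 lower (25.6% and 19.8%). Leaving out cow5266 gave 29 higher and 6 lower, leaving out cow7382 gave 32 higher, and leaving out cow6314 gave 60 higher. For the fits without 1 cow in this paragraph the shares over all tested genes are not given here. A general change in the number of calls cannot be told apart from a change in these genes. The 48 include COX6B2, which passed the count minimum mainly through the 12 h cows. The 8 genes that were higher in all 10 alternatives and all 12 fits without 1 cow were NDUFA1, NDUFA2, NDUFA7, NDUFB1, NDUFB10, ATP5F1E, ATP5MPL and ATP5PF. The matching share of all tested genes was not computed. NDUFA2, an accessory subunit of complex I (chromosome 7, 51778423 to 51780743), was at 188.78, 205.58, 177.59 and 180.10 TPM at 4 h and at 222.08, 246.09, 261.59 and 243.22 TPM at 12 h. The groups were apart, with the controls at 209.31 to 236.89 TPM, and the log2 difference was 0.65 ± 0.09 (SE, edgeR adjusted p = 0.000122). Of the mitochondrially encoded genes, 5 were higher at 12 h than at 4 h (ND1, ND3, ND6, COX2 and COX3), and this number was 11 without cow6314, 0 without cow5266 or cow7475, 2 without cow7382, cow4291, cow5341 or cow6456, and 3 without cow6455 or cow7514. With the length offset it was 0, as it was in limma on log2(TPM + 1).

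Genes that serve the respiratory chain without being part of it were followed in the same fit, and their counts at 12 h stand against 23.6% of all tested genes that rose and 25.3% that fell. Of 16 genes of the tricarboxylic acid cycle and pyruvate dehydrogenase, which supply its electrons, 11 fell at 12 h and 0 rose (median -0.58, against 0.01 over all genes). In DESeq2 0 rose, and 0 were higher at an unadjusted p under 0.05, where 3964 of all 14481 tested genes were. CS, citrate synthase, was at 153.81 to 202.59 TPM in controls and 68.14 to 75.02 TPM at 12 h (log2 fold change -1.0 ± 0.12 SE, edgeR adjusted p = 5.63e-05). DLAT, the E2 subunit of pyruvate dehydrogenase, had fallen by 4 h (log2 fold change -0.51, adjusted p = 0.00537) and was at -0.91 at 12 h.

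Of 8 tested regulators of respiratory genes, 6 fell and 1 rose at 12 h (75.0% and 12.5%, against 25.3% and 23.6% of all tested genes). PPARGC1B, the coactivator PGC-1 beta, was at 6.61 to 12.8 TPM in controls and 0.47 to 0.96 TPM at 12 h (log2 fold change -3.49 ± 0.34 SE, edgeR adjusted p = 1.52e-05). ESRRA, the nuclear receptor ERR alpha, fell by 0.49 on the log2 scale (adjusted p = 0.00148). GABPB1, a subunit of the factor also called NRF-2, rose (0.38, adjusted p = 0.0109) in scaled counts, while on the log2(TPM + 1) scale it was at -0.04. PPARGC1A and ESRRG had too few counts to test.

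Of 15 genes of mitochondrial DNA transcription and replication, 3 rose and 2 fell at 12 h (both shares under the 23.6% and 25.3% of all tested genes). PRIMPOL, a primase, rose (log2 fold change 1.25, edgeR adjusted p = 3.15e-05) after a fall at 4 h (-0.59, adjusted p = 0.0172). TFAM, the factor that packages and transcribes mitochondrial DNA, named after its value was seen, was at 12.82 to 18.2 TPM in controls and 6.28 to 8.54 TPM at 12 h (log2 fold change -0.88 ± 0.15 SE, edgeR adjusted p = 0.000528). Of 19 genes of mitochondrial RNA processing and decay, 8 fell and 1 rose. PTCD3 fell at both times (-0.60 and -0.88, adjusted p = 0.000783 and 1.51e-05). LRPPRC and SLIRP, the partners that stabilise mitochondrial messengers, also named after their values were seen, differed in direction (-0.72 with adjusted p = 0.00129, and 0.49 with adjusted p = 0.00515).

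Of 18 assembly factors of complex I, 7 fell and 1 rose at 12 h, of 13 of complexes II, III and V, 5 fell and 1 rose, and of 22 of complex IV, 5 fell and 5 rose. Of all tested genes 48.9% were called in either direction. NDUFAF4 fell at both times (log2 fold change -0.78 at 4 h and -0.86 at 12 h), as did UQCC1 (-0.54 and -0.83) and TACO1 (-0.45 and -0.95), the activator of COX1 translation. Of 19 genes of protein import 5 fell and 4 rose, among the falls TOMM40, the channel of the outer membrane (-0.68, edgeR adjusted p = 6.06e-05), and HSPA9 (-0.93, adjusted p = 0.000348). Of 14 genes of mitochondrial fusion, fission and cristae 9 fell and 3 rose. DNM1L, the fission GTPase, was at 65.45 to 77.84 TPM in controls and 21.58 to 29.99 TPM at 12 h (log2 fold change -1.18 ± 0.09 SE, edgeR adjusted p = 5.21e-06). MFN2, which fuses outer membranes, was at 41.9 to 53.29 and 19.17 to 22.03 TPM (-0.91, adjusted p = 1.35e-05).

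Of 8 genes of carriers, porins and uncoupling, 4 fell and 2 rose, and UCP2, an uncoupling protein that immune cells also express, rose from 124.31 to 224.88 TPM in controls to 249.52 to 320.57 TPM at 12 h (log2 fold change 1.06, edgeR adjusted p = 0.000146). Of 6 genes of cholesterol entry and steroid synthesis in or on the mitochondrion, 5 fell at 12 h. These were HSD3B1 (log2 fold change -3.15, SE 0.25), STAR (-2.49, SE 0.37), FDXR (-1.35, SE 0.25), FDX1 (-0.85, SE 0.25) and CYP11A1 (-0.81, SE 0.24). TSPO, a cholesterol-binding protein of the outer membrane, rose (0.68, adjusted p = 0.000361), a call that limma on log2(TPM + 1) did not make. Without cow6314, rises and falls at 12 h came to 4 and 5 for assembly of complex I, 1 and 2 for complexes II, III and V, 8 and 5 for complex IV, 4 and 5 for fusion, fission and cristae, and 2 and 1 for carriers, porins and uncoupling. In that fit 24.9% of all tested genes rose and 23.2% fell. With the length offset 0 of the 19 import genes rose and 7 fell, and 3 assembly factors of complex IV rose and 7 fell (24.0% and 22.8% of all tested genes). At 4 h, where 8.65% of all tested genes rose and 5.59% fell, 2 rose and 3 fell of the 15 genes of mitochondrial DNA transcription and replication. Of the 19 of RNA processing 1 rose and 3 fell, and the other lists had 0 to 3 calls each. Beside these stand the marker counts at 12 h: of 8 luteal cell markers 6 fell, of 12 macrophage markers 9 rose, and of 9 neutrophil markers 6 rose, and their part in the changes of the respiratory chain genes was not tested.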

How the data were processed

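The authors deposited, for each of the 12 cows, an RSEM table of expected counts (estimated reads per gene, not always whole), TPM and FPKM with gene, position and length. The submitters' processing notes name STAR 2.5, RSEM 1.3 and the build ARS-UCD 1.2. Library kit and strand are not given in the sources used here. Expected counts were rounded, genes reaching 10 counts in 4 or more libraries were kept, and all 3 groups were fitted together by edgeR 4.0.16 (TMM scaling, quasi-likelihood test, two-sided). Benjamini-Hochberg adjustment ran over the 14481 genes of each comparison, and a gene rose or fell where the adjusted p was under 0.05. TPM is given as deposited, and sums and ratios of TPM carry no test.

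Alternatives were DESeq2 1.42.0, RLE scaling, no count minimum, a minimum of 50, only the 2 groups compared, limma 3.58.1 on log2(TPM + 1) and log2(TPM + 0.1), no mitochondrially encoded genes, an offset for transcript length fitted per library (natural spline, 5 degrees of freedom), cow6455 and cow6314 left out together, and each cow left out. For the ratio of sums, counts, FPKM and medians were used. No member shares its symbol with another gene, and 15 nuclear encoded members had expected counts that were not whole in all 12 libraries. NDUFAB1, and COX6C, which is listed as MGC148714, fall outside the rule.

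The members and lists were chosen with earlier results of these data known. Genes named with values are the mitochondrially encoded genes, those called at 4 h, the 3 smallest p values per complex and direction at 12 h, isoform families with ATP5IF1, the most abundant gene per complex, and the 2 smallest p values per related list and time, with all 6 steroidogenic genes. Other called members, TFAM, LRPPRC and SLIRP, and the ratios of unlike subunits, were chosen after their values were seen. UQCC2, COA4, MICOS10 and PTCD1 did not match by name. Cows are separate animals and share no replicate numbers. SEs were derived from the test, as the absolute log2 fold change divided by the square root of the quasi-likelihood F statistic. They include the spread between cows and counting error. Fits ran under R 4.3.3, and tables and plots were made with matplotlib 3.10.9, scipy 1.17.1, numpy 2.4.6 and pandas 2.3.3 under Python 3.11.15.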

Additional observations from a re-analysis of the deposited data

Results flagged for a closer look

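By the test of 12 h against 4 h in edgeR, 48 of the 82 nuclear encoded genes had a higher effect at 12 h and 1 a lower effect. Over all tested genes 22.5% were higher and 24.3% lower. The 48 include COX6B2, whose call is not read as a result. Of the mitochondrially encoded genes 5 had a higher effect and 0 a lower effect. Both sets of counts depend on the scale, as given above for log2(TPM + 1) and the length offset. The effects at 4 h and at 12 h are measured against the same controls.

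Of 177 groups of 4 cows, 12 had 1 cow far from the others in TPM, where chance flags about 1 in 20. Cow6314 was low at 12 h for COX1 (30022.58 TPM, the others 50881.68 to 54019.02) and ND3 (11814.42 TPM, the others 16836.66 to 16917.3). Cow5266 was high at 12 h for ATP5MC3 (386.23 TPM, the others 325.89 to 331.93) and COX5A (154.35 TPM, the others 133.82 to 136.82). Cow4291 was high at 4 h for COX5A (173.62 TPM) and COX6A2 (0.37 TPM), and low for CYTB (10309.81 TPM) and ND1 (8044.82 TPM). Cow6455 was low at 4 h for COX4I2 (3.01 TPM), and control cow7367 was low for COX7A2L (137.37 TPM, the others 162.89 to 167.87). COX7B2 was at 0.51 TPM in control cow7514, from 1 count, and COX6A2 at 0.04 TPM in 12 h cow7382, from a count that rounds to 0.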

How the results depend on the processing

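Counts of calls moved by over 1.5 times in these settings, and the cause was not tested unless the setting itself removes samples. Nuclear falls at 4 h were 1 with RLE scaling, with no count minimum, with only the 2 groups and without mitochondrially encoded genes, 6 and 5 on log2(TPM + 1) and log2(TPM + 0.1), 6 with the length offset and 9 without cow6455 and cow6314, and 0 to 4 with 1 cow left out. Nuclear rises at 12 h were 10 with no count minimum, 1 on either TPM scale, 4 with the length offset and 35 without both cows (8 to 42 with 1 cow left out), and falls were 27 and 25 on the TPM scales (5 to 13). Between 12 h and 4 h, nuclear rises were 9 on either TPM scale and 26 with the offset (29 to 60), and falls were 2 with DESeq2 and without both cows, 12 and 10 on the TPM scales and 4 with the offset (1 to 6). Mitochondrially encoded rises at 12 h were 2 with only the 2 groups and with the offset, 0 on either TPM scale and 11 without both cows (0 to 11). Against 4 h they were 3 with RLE, 2 with no count minimum, 0 on the TPM scales and with the offset, and 11 without both cows (0 to 11). Shares over all tested genes were given above for some of these settings only. With the length offset at 4 h, falls over all tested genes also became more frequent. By transcript length, from under 500 to over 2000 bases, these falls were 2.60%, 3.47%, 7.79% and 9.97%, against 2.41%, 2.85%, 5.48% and 6.38% without the offset. A general change in the number of calls cannot be told apart from a change in these genes. The log2 ratio of summed TPM was 0.47 at 4 h from medians (0.21 to 0.35 with 1 cow left out, and 0.29 to 0.48 at 12 h).

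Signs that reversed in limma on log2(TPM + 1) and log2(TPM + 0.1) included COX7A2L (-0.29 and -0.29 at 12 h, -0.013 and -0.013 against 4 h), GABPB1 (-0.041 and -0.045), NDUFB10 (-0.046 and -0.047), SDHD against 4 h (-0.020 and -0.020) and TFB1M against 4 h (-0.24 and -0.25). Uncalled differences of mitochondrially encoded genes reversed as well. ND4L at 12 h was at 0.06 in edgeR, -0.29 on log2(TPM + 1) and -0.24 with the length offset. ATP8 against 4 h was at 0.24, -0.09 and -0.02. On log2(TPM + 1), ND2 and ND5 at 12 h and CYTB against 4 h also reversed. The list is not complete. No paired analysis was possible because the cows of the groups share no replicate numbers. With 4 cows per group, differences of about the SEs given are not detectable, and small counts limit COX6A2, COX7B2, COX8B and COX6B2.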
